A study of Mus musculus with 16 samples.

Results

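Kupffer cells, the resident macrophages of the liver, were followed through 10 marker genes (Adgre1, Clec4f, Vsig4, Cd5l, Marco, Timd4, Csf1r, Cd68, Lyz2 and Cd163) in RNA sequencing of mouse liver. The genes were chosen by symbol and are 10 of the 24082 Ensembl genes in the table, and all 10 were among the 12535 genes that passed the filter for low values. The 16 libraries came from female C57Bl6/J mice aged 9 to 11 weeks, 4 in each of 4 groups, fed a liquid diet for 25 days. EtOH mice received ethanol up to a final 6% (vol/vol), and Pair mice received the control diet in matched amounts. Iodomethylcholine (IMC), an inhibitor of the microbial enzyme that makes trimethylamine from choline, was given in the diet at 0.06% (wt/wt), and mice without it are called vehicle mice here. The groups were Pair vehicle (libraries 10, 12, 14 and 16), Pair IMC (2, 4, 6 and 8), EtOH vehicle (1, 3, 5 and 7) and EtOH IMC (9, 11, 13 and 15). According to the study the EtOH IMC mice ate less and weighed less than the EtOH vehicle mice. IMC therefore cannot be told apart from intake or body weight in ethanol-fed mice, which also enter the averaged IMC comparison. The study also marks a difference in body weight between Pair mice with and without IMC, so that IMC and body weight cannot be told apart there. Each library held between 9632659 and 12601199 reads on genes.

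Kupffer cells line the liver sinusoids, where they take up bacteria, dying cells and aged red cells from portal blood. They depend on signals through the receptor Csf1r, and gut-derived bacterial products acting on them are a known part of alcohol-associated liver injury. When they are lost, monocytes from the blood can take their place, and markers such as Timd4 are characteristic of the cells that were there before. In whole liver RNA, fewer Kupffer cells and less of a transcript in each cell cannot be told apart.

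The markers were expressed at low levels, and their reads made up between 0.0271% and 0.0715% of the reads of a library. Per length of exon, Cd5l, a secreted protein of macrophages that binds lipids, was at 52.4 ± 15.1 RPKM, that is reads per kb of exon and per 1e6 reads (SD, n = 16 mice). Clec4f, a lectin used to identify Kupffer cells in mice, was at 47.1 ± 12.2 on this scale. Lyz2, the lysozyme of macrophages, monocytes and neutrophils, was at 44.4 ± 13.5. These neighbours were close, since Cd5l exceeded Clec4f in 13 of 16 mice and Clec4f exceeded Lyz2 in 11. Vsig4, a complement receptor that captures blood-borne bacteria, was at 22.0 ± 5.96, below Lyz2 in 16 of 16 mice. Marco, a scavenger receptor for bacteria, was at 8.92 ± 4.01 and Csf1r, the receptor for Csf1 and Il34, at 8.40 ± 2.40, with Marco the higher of the pair in 7 mice. Adgre1, which encodes the F4/80 antigen, was at 6.19 ± 2.01, and Cd68, a lysosomal glycoprotein, was at 6.10 ± 1.85. Cd163, the scavenger receptor for haemoglobin bound to haptoglobin, was at 5.39 ± 1.96. Timd4, a receptor for phosphatidylserine on dying cells, was lowest at 3.67 ± 1.32. The order between Marco and Csf1r, and between Adgre1 and Cd68, was not stable from mouse to mouse. Lyz1, a near-identical copy of Lyz2 that may share its reads, had at most 4.43 rescaled normalized counts in any mouse.

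Upstream sequences are shown for Cd5l, Vsig4 and Marco, as examples that hold the letters marked here. They are the 250 bases before the RefSeq start of each gene on GRCm38.p6, 5′ to 3′ on the strand of the gene, and capitals mark GAGGAA or its reverse complement, the core letters bound by the myeloid factor PU.1.
Cd5l (chr3:87357631-87357880, plus strand): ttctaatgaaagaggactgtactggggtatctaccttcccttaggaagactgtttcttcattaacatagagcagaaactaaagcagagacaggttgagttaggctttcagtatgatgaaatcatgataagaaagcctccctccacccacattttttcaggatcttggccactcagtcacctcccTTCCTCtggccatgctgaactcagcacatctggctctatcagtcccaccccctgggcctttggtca
Vsig4 (chrX:96293439-96293688, minus strand): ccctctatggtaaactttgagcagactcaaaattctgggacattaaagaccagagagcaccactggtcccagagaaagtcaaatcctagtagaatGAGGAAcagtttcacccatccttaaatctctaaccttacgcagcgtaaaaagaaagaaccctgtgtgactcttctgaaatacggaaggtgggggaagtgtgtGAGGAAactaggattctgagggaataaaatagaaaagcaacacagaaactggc
Marco (chr1:120505025-120505274, minus strand): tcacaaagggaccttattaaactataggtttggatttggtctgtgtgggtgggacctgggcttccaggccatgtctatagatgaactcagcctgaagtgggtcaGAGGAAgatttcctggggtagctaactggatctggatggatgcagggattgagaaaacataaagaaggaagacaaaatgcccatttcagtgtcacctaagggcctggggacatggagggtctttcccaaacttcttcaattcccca
GAGGAA was found 66 bases before the start of Cd5l, 155 and 53 bases before that of Vsig4 and 146 bases before that of Marco. Promoter windows of 300 bases (250 before to 50 after the start) were searched on both strands for 8 of the 10 genes. The PU.1 core was in 4 of these 8 windows and in 28.3% of all 32841 promoter windows of this length. The window of Cd68 also held it, and those of Clec4f, Lyz2, Timd4 and Cd163 did not. Between mice, Clec4f varied with Cd5l (Pearson r = 0.96) and Vsig4 (0.95) more closely than Marco did (0.78 and 0.77). TGCTGA, a half-site for MAF factors, was in 5 of 8 against 19.5% of all windows. TTGCNNAA, the letters of a C/EBP site, was in 1 of 8 against 10.8%, and TATAAA in 0 of 8 against 13.6%. A match of letters is a description of the window and not a measured binding site.

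One Pair vehicle mouse stood apart before any comparison was made between groups. In the values that follow, normalized counts were rescaled so that all 16 libraries could be set side by side. Clec4f (ENSMUSG00000014542, GRCm38 chr6:83644542-83656187) was at 765, 1102, 1032 and 2194 in the Pair vehicle libraries 10, 12, 14 and 16. Library 16 was above the other 3 Pair vehicle mice for 10 of 10 markers, and library 10 was below the other 3 for 10 of 10. Relative to the mean of the other 3 mice, the median marker was 2.26-fold in library 16, with a range from 1.75 to 2.82, and 0.543-fold in library 10. The same measure over all genes tested was 0.992-fold for library 16. In no other group did 1 mouse exceed its group for all 10 genes, although library 2 did so for 9 and library 7 for 8.

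Some other lists of macrophage genes were also high in library 16, and others were not. It was above the other 3 Pair vehicle mice for 17 of 20 other Kupffer cell genes (median 1.61-fold) and for 20 of 24 phagocyte receptors and lysosomal genes (median 1.66-fold), against 27.8% of all genes tested. It was so for 8 of 15 macrophage growth factors and transcription factors (1.32-fold), 5 of 9 monocyte and recruited macrophage genes (1.22-fold) and 4 of 11 cytokines and chemokines (0.982-fold). The median was 1.11-fold over 10 hepatocyte markers, 1.15-fold over 10 sinusoidal endothelial markers and 1.14-fold over 10 stellate cell markers. For the markers of other blood cells, it was 2.08-fold over 3 neutrophil markers, 1.54-fold over 2 lymphocyte markers and 1.31-fold over 2 dendritic cell markers. The bile duct markers were at a median of 0.58-fold. What set this mouse apart was not tested, and its part in each comparison is shown by giving the values with and without it.

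**Figure D1:**
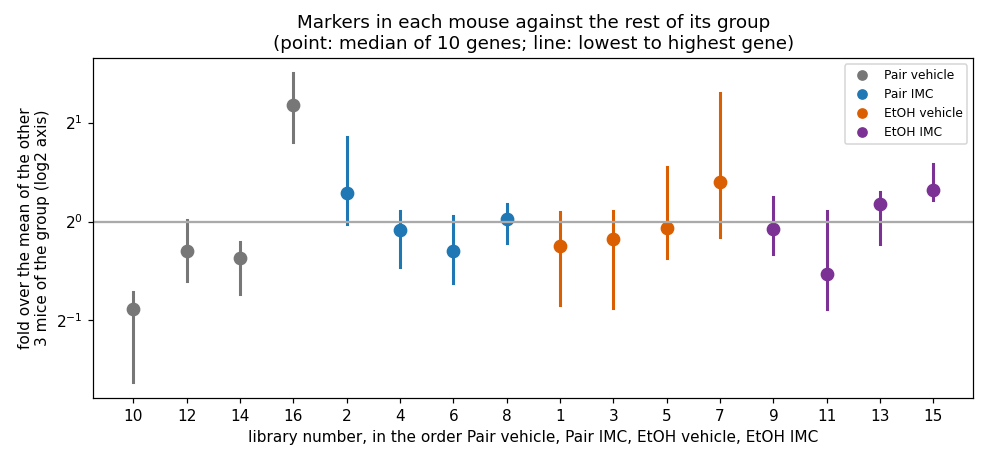
The fold of the 10 markers in each mouse over the mean of the other 3 mice of its group (vertical axis, log2 scale) is plotted for the 16 libraries (horizontal axis), with a point for the median gene and a line from the lowest to the highest gene. Library 16 is at 2.26-fold and library 10 at 0.543-fold.

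The first question was whether IMC changed the markers in pair-fed mice. No marker passed the test (0 of 10, limma with Benjamini-Hochberg adjustment over all genes), while 9.4% of the 12535 genes did. Clec4f was at 1350.3, 1114, 900.2 and 1273 in the Pair IMC libraries 2, 4, 6 and 8, within the range of Pair vehicle. Its log2 fold change was -0.04 (95% interval -0.52 to 0.44). Timd4 (chr11:46810800-46844332) was at 57.6, 74.9, 81.6 and 201 in Pair vehicle and at 89.9, 89.0, 76.7 and 81.3 in Pair IMC. The 4 Pair IMC mice lay within the range of Pair vehicle, and library 16 alone was above them. The median log2 fold change of the 10 genes was 0.00, from -0.34 for Adgre1 to 0.36 for Cd163, beside 0.00 for all genes tested. At an unadjusted p under 0.05, 0 of 10 passed. Adgre1 had the lowest p of the 10 (0.179 by limma) and ranked 5441 by p among the 12535 genes. Groups did not overlap for 0 of 10 markers, while 14.3% of all genes tested had groups that did not overlap. Without library 16, 0 of 10 passed as well, against 8.69% of all genes. The value for Cd163 then moved from 0.36 to 0.66 and that for Csf1r from 0.14 to 0.45.

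In ethanol-fed mice, Adgre1 and Lyz2 were lower with IMC, but not beyond the threshold. Adgre1 (ENSMUSG00000004730, chr17:57358691-57483527) was at 258, 251, 329 and 291 in the EtOH vehicle libraries 1, 3, 5 and 7. It was at 204, 137, 216 and 215 in the EtOH IMC libraries 9, 11, 13 and 15. Each EtOH IMC mouse was thus below each EtOH vehicle mouse. The log2 fold change was -0.56 ± 0.241 (SE) with an adjusted p of 0.108 by limma, and the exact permutation p was 0.0286, the smallest that 4 against 4 mice allow. This was the 1 marker of 10 whose groups did not overlap, while 25.4% of all genes tested had groups that did not overlap. Lyz2 (chr10:117277331-117282321) was at 586, 835, 789 and 1168 in EtOH vehicle and at 563, 431, 556 and 773 in EtOH IMC, and these ranges overlapped. Its log2 fold change was -0.53 ± 0.228 (SE), with an adjusted p of 0.109 by limma.

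Marco and Cd163 had the opposite sign in this comparison. Marco (ENSMUSG00000026390, chr1:120474538-120505024) was at 126, 123, 190.4 and 361 in EtOH vehicle and at 240.2, 274, 229 and 292 in EtOH IMC. The highest value was in a vehicle mouse, library 7, so that the groups overlapped. The log2 fold change of Marco was 0.51 (95% interval -0.23 to 1.26), and that of Cd163 was 0.37 (-0.23 to 0.98). In all, 0 of 10 markers passed the test, while 21.7% of all genes did. Under an unadjusted p of 0.05 by limma were 2 markers, Adgre1 (0.0331) and Lyz2 (0.0336). They ranked 3854 and 3875 by p among the 12535 genes tested, so that many other genes were under this cutoff too. The median log2 fold change was -0.22, beside 0.00 for all genes. Adgre1 passed in 2 of 30 alternative settings, with adjusted p-values over these settings from 0.021 to 0.283. Without library 16, which is in neither of these groups but enters the shared spread, its adjusted p was 0.0342.

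The effect of IMC did not differ detectably between the diets for any marker. Of 10 markers, 0 passed the test of the difference (138 genes, or 1.1%, passed among all), and 0 had an unadjusted p under 0.05. Lyz2 had the lowest p of the 10 (0.113 by limma) and ranked 3192 by p among the 12535 genes tested. The largest differences were those of Csf1r, at -0.57 (95% interval -1.32 to 0.17), and Lyz2, at -0.54 (-1.22 to 0.14). Without library 16, 0 of 10 passed as well, against 0.949% of all genes. Csf1r was then at -0.88 (-1.44 to -0.32) and Lyz2 at -0.75 (-1.36 to -0.13). The intervals of Vsig4 (-1.08 to -0.21) and Clec4f (-0.97 to -0.02) also lay below 0 in that fit, and those of the other markers included 0. Averaged over both diets, IMC gave a log2 fold change of -0.45 ± 0.170 (SE) for Adgre1, with an adjusted p of 0.0584 by limma. No marker passed in this comparison either, against 28.2% of all genes tested. Adgre1 passed in 7 of 30 alternative settings, among them edgeR and DESeq2 on whole reads, and its adjusted p ranged from 0.0265 to 0.142 over them. Cd163 had the largest positive value at 0.37 ± 0.203 (SE), and it passed at an adjusted p of 0.036 without library 16 (from 0.0245 to 0.401 over all settings).

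The second question was whether ethanol changed the markers. In vehicle mice 9 of 10 had a positive log2 fold change, with a median of 0.44 beside -0.01 for all genes tested, but no marker passed the test (0 of 10, against 11.9% of all genes). Vsig4 (ENSMUSG00000044206, chrX:96247203-96293438) was at 228, 267, 282 and 574 in Pair vehicle and at 405, 414, 416 and 551 in EtOH vehicle. Its 4 EtOH mice were above 3 of the Pair mice and below library 16. The log2 fold change was 0.49 ± 0.216 (SE), with an adjusted p of 0.148 by limma. Csf1r was at 283, 419, 435 and 882 in Pair vehicle and at 558, 578, 685 and 777 in EtOH vehicle, with the same arrangement. Cd68 (chr11:69664213-69666153) was at 52.0, 67.1, 54.8 and 139 against 75.7, 101, 131 and 92.2. Timd4 had the 1 negative value, at -0.09 (95% interval -0.69 to 0.51), and Cd5l (chr3:87357881-87371073) was at 0.07 (-0.44 to 0.57). Groups overlapped for each of the 10 markers, while 19.0% of all genes tested had groups that did not overlap.

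The result for ethanol in vehicle mice rested on library 16. When it was left out, 6 of 10 markers passed the test, all higher with ethanol, while 6.02% of all genes passed in that direction. These were Vsig4 (0.78 ± 0.151, SE; adjusted p = 0.00499 by limma), Cd68 (0.76; 0.0165), Csf1r (0.79; 0.0177), Clec4f (0.62; 0.0256), Lyz2 (0.74; 0.0371) and Adgre1 (0.64; 0.0448). This is 1 of 16 fits that each left out 1 library, and no marker passed in this comparison when any other single library was left out, library 10 included. Over the 30 alternative settings the adjusted p of Vsig4 ranged from 0.00499 to 0.347 and that of Clec4f from 0.0256 to 0.777. Library 16 was singled out after the values of these same genes had been seen, so the 6 calls are not independent of that choice. Library 10, the Pair vehicle mouse at the other end, was kept in that fit, so leaving out library 16 alone lowers the Pair vehicle mean. With all 16 libraries the count is 0. On the values as deposited, which were scaled within each diet, 2 of 10 passed, beside 23.9% of all genes, and the median gene was then at 0.18. Timd4 was at 0.10 on these values in place of -0.09.

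**Figure D2:**
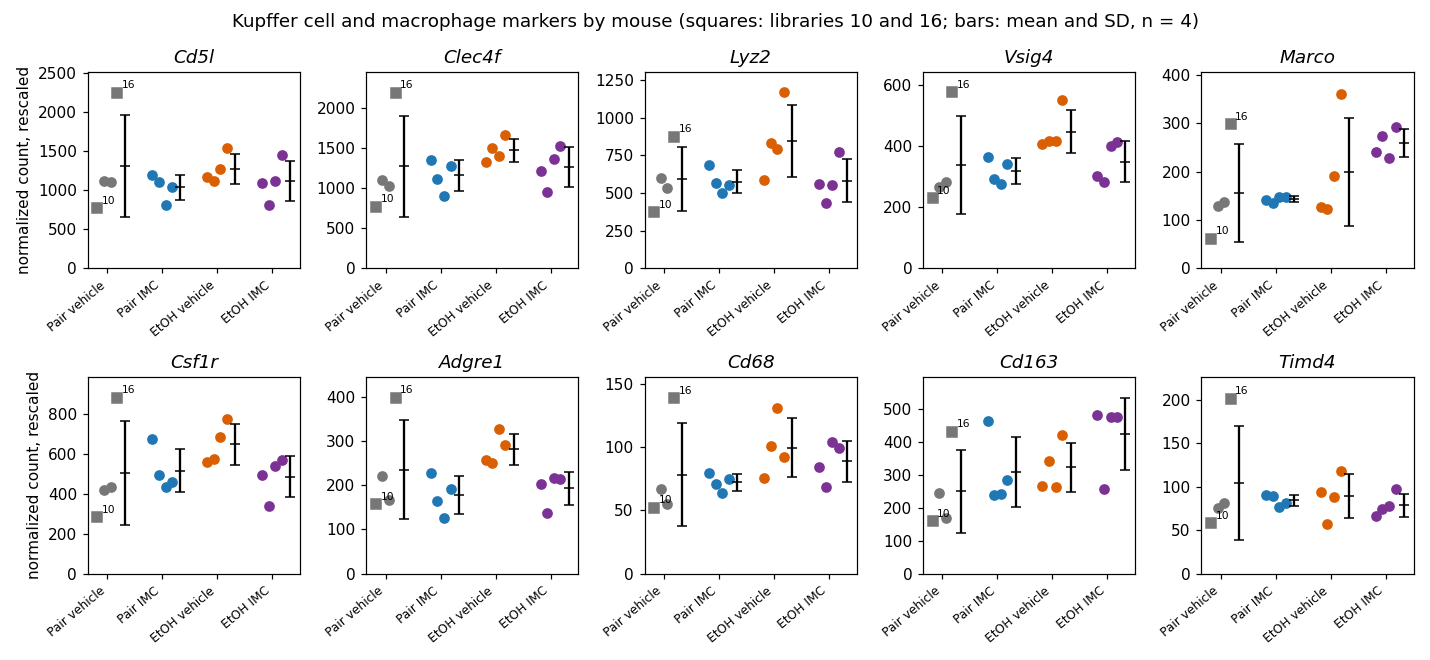
Rescaled normalized counts (vertical axes, from 0) of the 10 markers are plotted for each mouse of the 4 groups (horizontal axes), with the mean and SD of 4 mice beside each group and squares for the Pair vehicle libraries 10 and 16. Library 16 is at 574 for Vsig4, where the 4 EtOH vehicle mice lie between 405 and 551.

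In IMC-treated mice ethanol went with a higher level of Marco. Marco was at 141, 135, 147 and 148 in Pair IMC and at 240.2, 274, 229 and 292 in EtOH IMC. The groups did not overlap, and the spread within Pair IMC was a coefficient of variation of 4.04%. The log2 fold change was 0.85 ± 0.354 (SE), the exact permutation p was 0.0286, and the adjusted p was 0.112 by limma, which pools the spread over all 4 groups. With only the libraries of these 2 groups in the fit the adjusted p was 0.00102, and it ranged from 0.00102 to 0.282 over 30 settings, of which 4 passed the threshold. Marco was the 1 marker of 10 whose groups did not overlap, while 19.2% of all genes tested had such groups. None of the 10 passed the test (0 of 10, against 16.5% of all genes). Without library 16, which is in neither of these groups but enters the shared spread, 1 of 10 passed, against 17.1% of all genes. This was Marco (adjusted p = 0.0484 by limma). On the values as deposited 1 of 10 passed, beside 28.9% of all genes. The other markers lay between -0.11 for Timd4 and 0.47 for Cd163.

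Averaged over vehicle and IMC, the largest log2 fold changes with ethanol were those of Marco, at 0.64 ± 0.250 (SE; adjusted p = 0.0696 by limma), and Cd163, at 0.46 ± 0.204 (adjusted p = 0.103). Again 0 of 10 passed, against 26.1% of all genes, and 2 of 10 were under an unadjusted p of 0.05. These were Marco and Cd163. They ranked 3706 and 4315 by p among the 12535 genes tested, so that many other genes were under this cutoff too. Without library 16, 6 of 10 passed, all higher with ethanol, while 12.8% of all genes passed in that direction. They were Vsig4, Cd68, Marco, Cd163, Clec4f and Adgre1, with log2 fold changes from 0.37 for Clec4f to 0.83 for Marco. Csf1r (0.35), Lyz2 (0.37), Cd5l (0.23) and Timd4 (0.09) did not pass. On the values as deposited, with all 16 libraries, 6 of 10 passed, beside 41.7% of all genes, and the median gene was at 0.19. Timd4 was at 0.09 on these values in place of -0.10. What the library numbers stand for is not stated. In each comparison within a diet or within a treatment, one group held numbers from 1 to 8 and the other from 9 to 16, so that this split and the treatment or diet cannot be told apart there. The difference of IMC effects between diets likewise sets numbers from 9 to 16 against numbers from 1 to 8. It cannot be told apart from this split either. The averaged comparisons are balanced over that split, but all Pair libraries have even and all EtOH libraries odd numbers, so that odd or even numbering and ethanol cannot be told apart in any ethanol comparison.

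**Figure D3:**
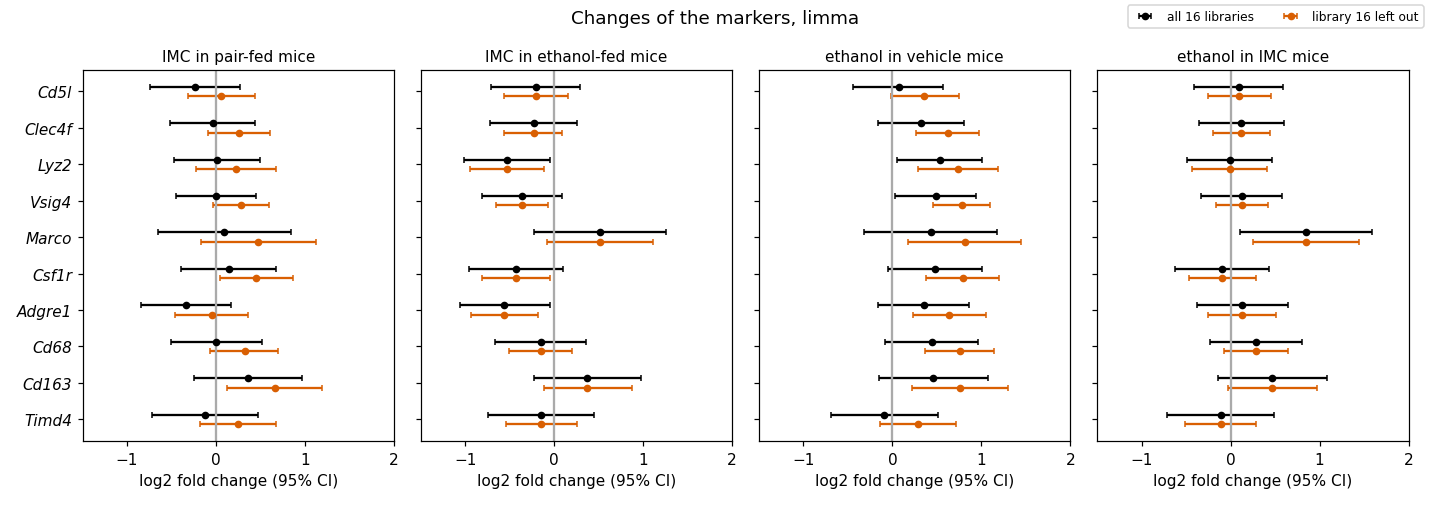
Log2 fold changes of the 10 markers (horizontal axes) with 95% intervals are plotted for 4 comparisons, with all 16 libraries in black and without library 16 in orange. In vehicle mice Vsig4 is at 0.49 with all libraries and at 0.78 without library 16, while in IMC mice Marco is at 0.85 in both fits.

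The markers rose and fell together between mice of the same group. Deviations of each gene from its group mean were correlated over the 16 mice for the 45 pairs of markers. The median Pearson r was 0.84, from 0.58 for Marco with Cd163 to 0.96 for Cd5l with Csf1r, and the median Spearman rho was 0.75. By a permutation test within groups, 40 of 45 pairs had an adjusted p under 0.05 for r and 33 for rho, with adjustment over the 45 pairs. No share over pairs of other genes is given beside these counts, so they do not show whether the markers differ from other genes in this. For Cd5l with Csf1r, r was 0.96 and rho 0.91 (permutation p = 1e-05 for r, the smallest that 100000 permutations can give, adjusted p = 0.00045). The 5 pairs that did not pass for r were Marco with Cd163, Adgre1 or Cd68, and Timd4 with Cd163 or Cd68. When the 2 mice farthest from the median of the first gene were left out, the median r was 0.70, and the lowest was 0.06 for Marco with Cd68. Without library 16 the median was 0.69, and Timd4 with Cd68 was lowest at 0.09. The relation of Marco and Timd4 to Cd68 therefore rested on the extreme mice, while Cd5l with Csf1r remained at 0.91 without library 16. All values come from the same libraries.

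**Figure D4:**
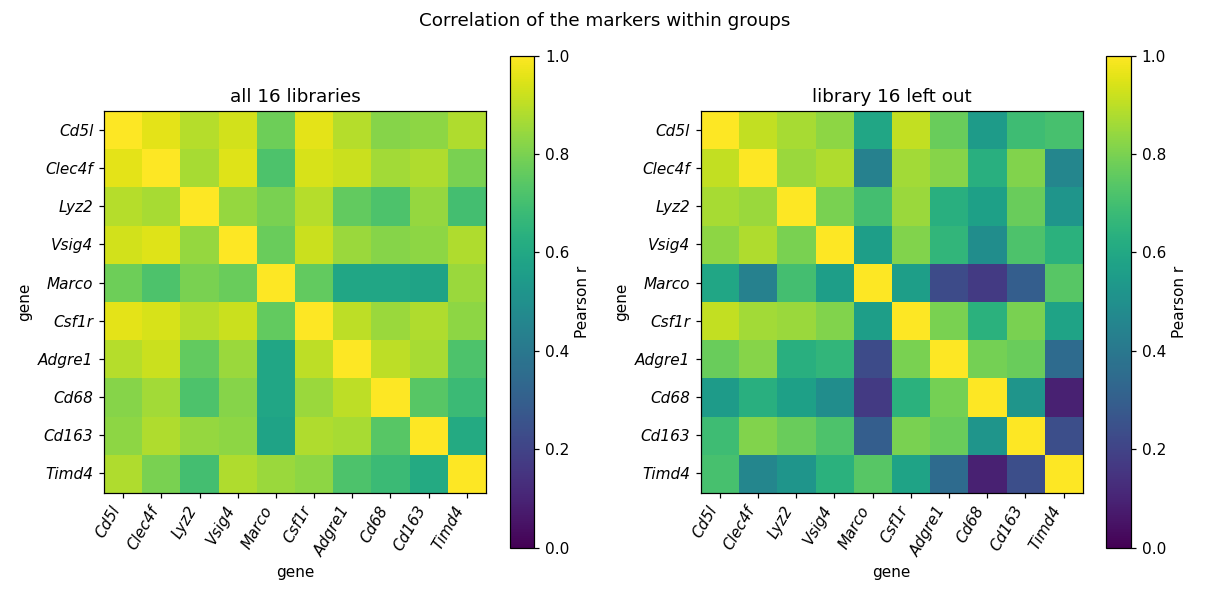
Pearson r of the deviations from group means is shown by colour for each pair of the 10 markers (both axes), over 16 mice on the left and without library 16 on the right. The median over 45 pairs is 0.84 on the left and 0.69 on the right, and the rows of Timd4, Cd68 and Marco fall most.

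Among all genes tested, those most like the markers were often other macrophage genes. For Clec4f they were C1qb and Cfp (r = 0.98 each, n = 16), which encode a chain of complement C1q and properdin, and Ctss (0.96), a lysosomal protease. For Cd163 they were C1qc (0.95), Adgre4 (0.94) and Ctss (0.94). For Adgre1 they were Sdc3 (0.96), Il18bp (0.94) and Cfp (0.94), and for Lyz2 Laptm5, Itgal (0.92 each) and C1qb (0.91). For Vsig4 they were Clec4f (0.95), C1qa and C1qb (0.94 each). Cd5l was nearest to Clec4f, C1qb and Csf1r (0.96 each), and Csf1r to Cd5l (0.96), C1qb and Cd300a (0.95 each). For Cd68 they were Nckap1l (0.91), Adgre1 and Clec12a (0.90 each). Marco and Timd4 differed, with Ifi209 (0.89), Ltv1 (0.88) and Tmem51 (0.86) nearest to Marco, and Dnajb5, Zfp810 (0.90 each) and Sirpa (0.88) nearest to Timd4. The 3 genes of Marco were at 0.81 to 0.82 without library 16, and those of Timd4 at 0.69 to 0.76.

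The markers were correlated between mice, with a median r of 0.84, or 0.69 without library 16. Each was therefore also set against Clec4f within a mouse, a choice made after the values had been seen. The ratio of Cd163 reads to Clec4f reads was 0.198 ± 0.0252 (SD, n = 4) in Pair vehicle and 0.263 ± 0.0582 in Pair IMC. It was 0.217 ± 0.0282 in EtOH vehicle and 0.332 ± 0.0529 in EtOH IMC. In ethanol-fed mice the lowest ratio with IMC (0.272) was above the highest without it (0.253), in a comparison where 19.3% of all genes had a ratio to Clec4f with an exact p under 0.05. Library 16, at 0.196, lay within the range of its group. Averaged over both diets, the ratio was higher with IMC by 0.50 on the log2 scale (exact permutation p = 0.000816 over 4900 divisions within diets, where 0.000408 is the smallest possible). The ratio of Adgre1 to Clec4f was lower with IMC by an average of -0.31 (exact p = 0.00204), at 0.188 ± 0.0195 and 0.153 ± 0.0125 in Pair vehicle and Pair IMC, and at 0.193 ± 0.0306 and 0.153 ± 0.0129 in EtOH vehicle and EtOH IMC.

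These p-values are 2 of 54 (9 ratios in 6 comparisons), of which 8 were under 0.05, and they are not adjusted. Among all genes, 13.7% had a ratio to Clec4f with an exact p under 0.05 for IMC averaged over both diets, and 17.2% for ethanol averaged over vehicle and IMC. When the same ratios were tested with limma across all genes, none of the 9 markers passed in any of 7 comparisons, where 0.327% to 4.48% of all genes passed. With ethanol the ratio of Timd4 was lower by an average of -0.32 (exact p = 0.0192) and that of Cd5l by -0.14 (0.0278). The ratio of Cd5l changed by -0.26 in vehicle mice (exact p = 0.0286, beside 2.51% of all genes under 0.05) and by -0.03 in IMC mice (exact p = 0.743). With IMC in pair-fed mice it changed by -0.20 (exact p = 0.0286, beside 1.58% of all genes under 0.05). The ratio of Marco was 0.127 ± 0.0259 in Pair IMC and 0.212 ± 0.0523 in EtOH IMC, and these groups did not overlap (log2 difference 0.72, exact p = 0.0286), in a comparison where 5.77% of all genes had an exact p under 0.05. Vsig4 followed Clec4f most closely, with a coefficient of variation of 8.49% in its ratio over the 16 mice, against 37.6% for Marco.

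**Figure D5:**
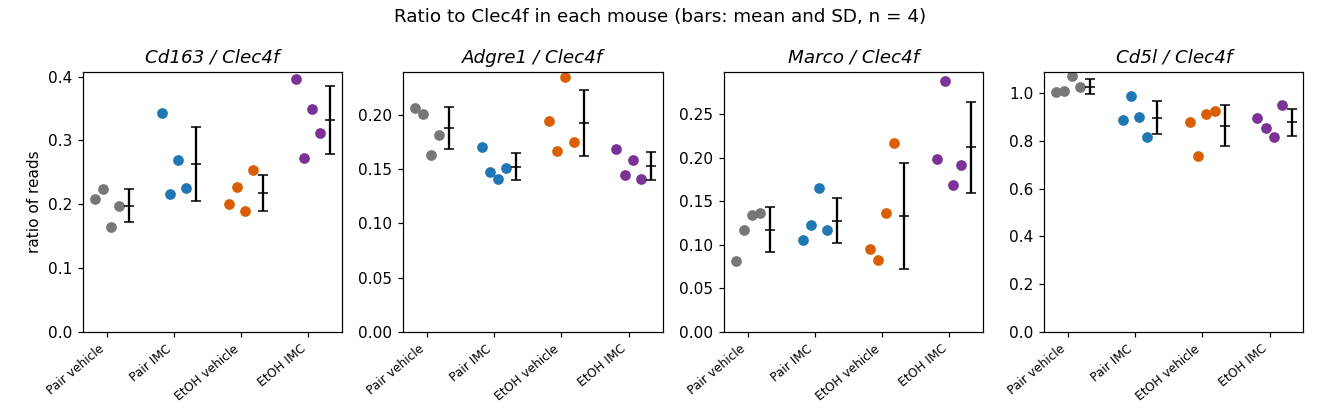
The ratio of reads to those of Clec4f (vertical axes, from 0) is plotted for Cd163, Adgre1, Marco and Cd5l in each mouse of the 4 groups (horizontal axes), with mean and SD of 4 mice. The mean for Cd163 is 0.217 in EtOH vehicle and 0.332 in EtOH IMC, and that for Adgre1 is 0.193 and 0.153.

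Other genes of macrophages were taken from lists. Of 20 other Kupffer cell genes, 1 was higher and 2 were lower with IMC averaged over both diets, where 28.2% of all genes passed in either direction. Hmox1, which degrades haem, rose (log2 fold change 0.60, adjusted p = 0.0226 by limma). Folr2 (-0.58, 0.049), a folate receptor of resident macrophages, and Il18bp (-0.33, 0.0319), which binds interleukin 18, fell, and both missed the threshold without library 16. Fcna, a ficolin that recognises sugars on microbes, rose with ethanol in vehicle mice (0.60, 0.0448). It was at 368, 491, 573 and 708 in Pair vehicle and at 747, 880.5, 708 and 839 in EtOH vehicle.

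Growth factors and transcription factors of macrophages fell with IMC in 5 of 15 tested genes averaged over both diets, and none rose (median -0.33), where 28.2% of all genes passed in either direction. They were Csf2ra (-0.56), Irf8 (-0.49), Csf1 (-0.41), Zeb2 (-0.40) and Cebpa (-0.33), the last of which hepatocytes also express. Csf1, a ligand of Csf1r, had an adjusted p of 0.0117 by limma. Zeb2, a transcription factor that maintains tissue macrophages and is also expressed by other liver cells, fell with IMC in ethanol-fed mice (-0.78, adjusted p = 0.000396 by limma). In pair-fed mice it was at -0.01 (0.971). The difference between the diets was -0.77 (0.0459), which cannot be told apart from the split of library numbers. Zeb2 was at 233, 251, 268 and 228 in EtOH vehicle and at 168, 113, 146 and 146 in EtOH IMC. These groups did not overlap, as was the case for 25.4% of all genes tested.

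Of 24 phagocyte receptors and lysosomal genes, 2 fell and none rose with IMC in ethanol-fed mice, where 21.7% of all genes passed. Mpeg1, a pore-forming protein of phagosomes, fell by 0.83 on the log2 scale (adjusted p = 0.00576), and Lamp2, a lysosomal membrane protein found in most cells, by 0.29 (0.0228). Mpeg1 was at 566, 845, 919.9 and 847 in EtOH vehicle and at 532, 314, 514 and 434 in EtOH IMC. With ethanol averaged over vehicle and IMC, 2 of the 24 rose and 2 fell, where 26.1% of all genes passed in either direction. Msr1, a scavenger receptor, rose (0.34, 0.0463), as did the protease gene Ctsb (0.22, 0.0487), while Mpeg1 (-0.63, 0.00281) and Npc2 (-0.31, 0.00658) fell.

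Of 9 tested genes of monocytes and recruited macrophages, 1 rose and 2 fell with IMC in ethanol-fed mice, beside the same 21.7% of all genes. Itgax, the CD11c integrin chain, fell by 1.97 on the log2 scale (adjusted p = 0.000422), from 14.3, 23.4, 27.8 and 22.0 in EtOH vehicle to 5.13, 4.21, 4.95 and 4.70 in EtOH IMC. Clec7a, the receptor dectin-1, fell by 0.79 (0.0479). Cd9, a tetraspanin made by many cell types, rose in pair-fed (1.16, 0.000665) and ethanol-fed mice (0.54, 0.0295). Of 11 tested cytokines and chemokines, 2 fell with IMC in each diet and none rose, beside 9.4% of all genes in pair-fed and 21.7% in ethanol-fed mice. Cxcl10 fell by 1.94 in pair-fed (adjusted p = 0.00265) and by 1.71 in ethanol-fed mice (0.00226), and Cxcl9 by 1.09 (0.0142) and by 1.72 (0.000229). Both are chemokines induced by interferon. Ccl5 was lower with ethanol in IMC mice (-1.14, 0.0106), at 14.1, 13.5, 14.9 and 11.3 in Pair IMC and at 4.27, 6.73, 4.95 and 6.57 in EtOH IMC. In vehicle mice it was lower too (-1.04, 0.0221), and without library 16 it was at -0.89 (0.0605). It was near the floor in EtOH mice and passed the filter for low values through the Pair mice, where it was high. These adjusted p-values are not independent of that. Tnf was too low to test, between 0 and 13.8 rescaled normalized counts.

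Markers of other liver cells moved in the same comparisons. Of 10 sinusoidal endothelial markers, 5 rose with ethanol averaged over vehicle and IMC, among them Lyve1 (0.57, adjusted p = 0.0254 by limma) and Clec4g (0.32, 0.0118), where 26.1% of all genes passed in either direction. Without library 16, 4 of the 10 rose, while 12.8% of all genes passed in that direction. Of 10 stellate cell markers, 4 fell with IMC in ethanol-fed mice, led by Reln (-1.26, 9.01e-05) and Ecm1 (-1.17, 7.31e-05). None rose, and 21.7% of all genes passed in either direction. In vehicle mice 3 of the 10 rose with ethanol and none fell, with Lrat at 1.16 (0.00201), where 11.9% of all genes passed in either direction. The summed level of the 10 stellate markers was between 6310 and 7450 in EtOH vehicle and between 3870 and 5070 in EtOH IMC. Of 10 hepatocyte markers, Hnf4a alone passed with IMC in ethanol-fed mice (0.62, 0.00297), and 0 of 10 passed with ethanol in vehicle mice. The summed level of the Kupffer markers was 2900 to 8240 in Pair vehicle, 3580 to 5270 in Pair IMC, 4860 to 6990 in EtOH vehicle and 3630 to 5920 in EtOH IMC. Of 2 tested lymphocyte markers Klrb1c fell with ethanol averaged over vehicle and IMC (-0.77, 0.0145), and of 2 dendritic cell markers Clec9a fell in each averaged comparison. Of 4 bile duct markers Krt7 fell with IMC in pair-fed mice (-1.52, 0.0398), and 0 of 3 neutrophil markers passed in any comparison. Each list marker had at least 1 read in the series. The part of these other cells in the values of the Kupffer markers was not tested.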

How the data were processed

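Liver RNA was sequenced as libraries made with a directional mRNA kit, according to the study's methods. Per the submitters' processing notes and the study's methods, the authors trimmed reads with Trim Galore, checked them with FastQC and aligned them to mm10 with STAR, and the read counter is not given in the sources used here. The labels call the reads paired-end and the study's methods single-end. The deposited values are a signal per gene, namely read counts that the authors divided by a size factor within each diet. Whole reads were recovered from them (100% of values within 0.01 of a whole read, where library 15 needed a step of its own). The table held 27212 rows and 24082 Ensembl IDs, of which 430 had several symbols, and 0 columns were left unmapped.

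Genes at 10 or more in at least 4 libraries were tested (12535). The study's methods name edgeR with upper quartile scaling, but since the deposited values are not counts, the main test was limma 3.58.1 (R 4.3.3) on log2(value + 1), with a test in both directions, 4 group means, a mean trend of the variance and Benjamini-Hochberg adjustment over all genes at 0.05. Fold changes are on this scale, which understates the change of low genes. IMC comparisons used the deposited values. Ethanol comparisons used values rescaled by the median ratio over 13121 genes, because the deposited scaling held a shift of 0.19 (log2) of the median gene between the diets. Exact permutation tests used all 70 divisions of 8 libraries, with 0.0286 the smallest p. Count tests of the recovered reads (edgeR 4.0.16, DESeq2 1.42.0) served as alternatives, as did other scalings, filters and pseudocounts, and leaving out each library. The script was tested on simulated data. Python 3.11.15, numpy 2.4.6, scipy 1.17.1, pandas 2.3.3 and matplotlib 3.10.9 were used.

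The markers, lists and tests were chosen with earlier results of these data known. Of each list other than the markers, up to 4 genes of largest change among those past the threshold could be named in a comparison, besides Tnf, the 3 genes most like each marker, and Lyz1. An exception is IMC averaged over both diets, where all 5 growth and transcription factor genes past the threshold are named.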

Additional observations from a re-analysis of the deposited data

Results flagged for a closer look

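In 5 of the 40 groups of 4 mice (10 markers in 4 groups), 1 mouse lay far from the other 3, with its gap to the nearest mouse divided by the range of the group above Dixon's 95% critical value for 4 values. Chance flags about 1 in 20 groups, and the markers are not independent of each other. The ratio was 0.841 for Vsig4 and 0.831 for Timd4 in Pair vehicle, both highest in library 16. Vsig4 was at 539 deposited normalized counts there, where the next mouse was at 267, and Timd4 was at 189, where the next was at 77.1. In EtOH vehicle the ratio was 0.914 for Vsig4, highest in library 7 (592, with the next at 448). In EtOH IMC library 11 was lowest for Cd163, with a ratio of 0.972 (279, with the next at 511), and for Adgre1, with a ratio of 0.868 (148, with the next at 220).

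The effect of IMC differed between the diets, by limma's test of the difference with adjustment over all genes, for 4 listed genes that are not Kupffer markers. The effect in ethanol-fed minus that in pair-fed mice was -0.77 on the log2 scale for the transcription factor Zeb2 (adjusted p = 0.0459). It was -1.29 for Reln (0.0141), -1.10 for Ecm1 (0.0199) and -0.99 for Pdgfrb (0.0269), which are stellate cell markers. For all 4 genes, this difference cannot be told apart from the split of library numbers described above.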

How the results depend on the processing

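The count of markers past the threshold, 0 of 10 in each of 7 comparisons, was recomputed under 31 alternative settings, of which 16 left out 1 library each, 11 were other planned settings and 4 were chosen after seeing the data. It moved in 27 of 217 counts. On the other scaling (deposited values for ethanol) it was 2 for ethanol in vehicle mice, 1 in IMC mice and 6 averaged, where 23.9%, 28.9% and 41.7% of all genes passed. With only the libraries of the comparison it was 1 for IMC in ethanol-fed mice and 1 for ethanol in IMC mice. There 21.9% and 12.6% of all genes passed. For IMC averaged over both diets it was 1 (Adgre1) with edgeR TMM, 1 with edgeR upper quartile and 1 with DESeq2. The shares of all genes were 28.2%, 28% and 29.2%. Of the settings chosen after seeing the data, edgeR without library 15 gave 1 (Lyz2) for IMC in ethanol-fed mice, beside 18.8% of all genes. DESeq2 without it gave 1 there and 1 averaged over both diets, beside 20.5% and 28.5% of all genes. Without libraries 16 and 7 the counts were 1 for IMC in ethanol-fed mice and 2 for IMC averaged, beside 16.8% and 23.7% of all genes. For ethanol they were 2 in vehicle mice, 1 in IMC mice and 5 averaged, beside 6.53%, 16.1% and 22.3%. With limma on ratios to Clec4f they were 0 in all 7 comparisons, where 0.327% to 4.48% of all genes passed. Leaving out 1 library gave 0 to 0 for the difference between diets and for IMC in pair-fed mice. It gave 0 to 1 for IMC in ethanol-fed mice, IMC averaged and ethanol in IMC mice, and 0 to 6 for ethanol in vehicle mice and ethanol averaged. Over these 16 fits the share of all genes was 0.431% to 1.34% for the difference and 4.26% to 11.4% for IMC in pair-fed mice. It was 15.9% to 22.8% for IMC in ethanol-fed mice and 23.6% to 29.9% for IMC averaged. For ethanol the share was 10.9% to 17.7% in IMC mice, 6.41% to 12.7% in vehicle mice and 21.8% to 27.6% averaged. For IMC averaged the 1 call was Adgre1 without library 2, 10 or 14 and Cd163 without library 16. For ethanol averaged it was Cd163 without library 2 or 11 and Marco without library 3. The cause of these moves was not tested.

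Of 2100 values of single markers, 1957 kept their sign and their side of the threshold, 49 newly passed and 94 changed sign. None of those that changed sign had passed the test. In pair-fed mice with IMC, Lyz2 was at -0.02 with quantile normalization, -0.06 with edgeR TMM, -0.08 with edgeR upper quartile and -0.05 with DESeq2, and at -0.05 with edgeR or DESeq2 without library 15. Marco was at -0.15, -0.16 and -0.13 with these 3 count tests, and at -0.14 and -0.13 without library 15. For the difference between diets, Timd4 was at 0.12, 0.13 and 0.12 with the 3 count tests and at 0.01 with edgeR without library 15, and Cd163 was at -0.01 with upper quartile scaling. For ethanol in vehicle mice, Cd5l was at -0.04, -0.02 and -0.04 with the 3 count tests and at -0.04 without library 15, and Timd4 at 0.10 on the other scaling. In IMC mice the other scaling gave 0.08 for Timd4, 0.10 for Csf1r and 0.18 for Lyz2. Lyz2 was there at 0.03 with quantile normalization and at 0.02, 0.05 and 0.01 with the 3 count tests, and Cd5l without library 15 at -0.03 with edgeR and -0.04 with DESeq2. For ethanol averaged, Timd4 was at 0.09 on the other scaling, and Cd5l at -0.04 with either count test without library 15. Without libraries 16 and 7, IMC in pair-fed mice gave 0.26 for Clec4f, 0.06 for Cd5l and 0.25 for Timd4, and the difference gave -0.17 for Cd5l and -0.15 for Cd163. IMC averaged then gave 0.04 for Clec4f, 0.01 for Vsig4, 0.12 for Timd4, 0.05 for Csf1r and 0.07 for Cd68, and Timd4 was at 0.14 for ethanol in vehicle mice and 0.01 averaged.

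Where leaving out 1 library changed the sign of a log2 fold change, its range over these 16 fits is given. For IMC in pair-fed mice they were -0.24 to 0.26 for Clec4f, -0.45 to 0.06 for Cd5l, -0.28 to 0.47 for Marco, -0.35 to 0.25 for Timd4, -0.09 to 0.45 for Csf1r and -0.19 to 0.22 for Lyz2. For the difference of IMC effects between diets they were -0.50 to 0.01 for Clec4f, -0.27 to 0.25 for Cd5l, -0.40 to 0.20 for Timd4 and -0.29 to 0.23 for Cd163. For IMC averaged over both diets they were -0.24 to 0.01 for Clec4f, -0.25 to 0.05 for Timd4, -0.26 to 0.01 for Csf1r and -0.15 to 0.08 for Cd68. For ethanol in vehicle mice they were -0.15 to 0.36 for Cd5l and -0.31 to 0.29 for Timd4. For ethanol in IMC mice they were -0.02 to 0.28 for Adgre1, -0.04 to 0.23 for Cd5l, -0.18 to 0.07 for Csf1r and -0.16 to 0.13 for Lyz2. For ethanol averaged over vehicle and IMC they were -0.03 to 0.23 for Cd5l and -0.21 to 0.09 for Timd4.

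No paired analysis was possible because the library numbers do not repeat across the groups. With 4 mice a group and all 16 libraries, the standard error of a marker's log2 fold change was at least 0.215 between single groups. It was at least 0.152 in the averaged comparisons.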
